A study of Mus musculus with 2 samples.

Results

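The miR-129 genes of the mouse are 2 copies at separate loci, Mir129-1 and Mir129-2, and a gene annotated on the strand opposite Mir129-2, Mir129b. These 3 genes were taken by their symbols in the GENCODE M21 annotation from the 2202 miRNA genes that were counted. In the left cerebral cortex Mir129-2 was the strongest of them, Mir129-1 stood well below it in each library, and Mir129b had 6 reads in one library and 5 in the other. The tissue came from the left cerebral cortex of B6CASTF1/J males aged 2 months, F1 animals from a cross of C57BL/6J with CAST/EiJ. RNA fragments shorter than 30 nucleotides were sequenced, with 1 library from each of 2 animals, numbered male 3 (library 1) and male 4 (library 2). No treatment or altered genotype is given, and the series holds this 1 group, so that no conditions could be compared. The labels give the 2 samples 1 common donor identifier but different animal numbers, and only the latter show that the animals were separate. The spread between the libraries may therefore be technical.

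A miRNA is cut from a hairpin precursor whose 5′ and 3′ arms can each give a mature miRNA of little over 20 bases. Bases 2 to 8 of the mature miRNA, the seed, pair with target mRNAs, which are then translated less or degraded. The miR-129 family is enriched in brain, where it is known from work on neuronal excitability and synapses, with the potassium channel mRNA Kcna1 among the studied targets of miR-129-5p.

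All 3 hairpins were found in the RefSeq table of build GRCm38.p6, and they are shown because their letters decide which reads can be assigned to which gene. Capitals mark the mature arms that the table lists.
Mir129-1: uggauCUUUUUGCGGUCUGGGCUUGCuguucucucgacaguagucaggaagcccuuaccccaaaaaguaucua
Mir129-2: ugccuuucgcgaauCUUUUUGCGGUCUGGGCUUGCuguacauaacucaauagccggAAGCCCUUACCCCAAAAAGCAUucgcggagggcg
Mir129b: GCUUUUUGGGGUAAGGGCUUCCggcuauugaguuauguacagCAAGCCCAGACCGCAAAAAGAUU

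Mir129-1 (ENSMUSG00000065469.1) lies on the plus strand of chromosome 6 from 29022619 to 29022691 (mm10). It lies inside an exon (29021734 to 29028922) of the long non-coding RNA gene Gm3294 on the same strand, 37529 bases from Lep, the nearest protein-coding gene, which encodes leptin. Mir129-2 (ENSMUSG00000065511.1) lies on the minus strand of chromosome 2 from 94241364 to 94241453, in an intron of the long non-coding host gene Mir670hg. Mir129b (ENSMUSG00000106336.1) lies on the plus strand of chromosome 2 from 94241378 to 94241442. All of its 65 bases face the Mir129-2 hairpin, which is 90 bases long and extends 11 bases beyond Mir129b at its own 5′ end and 14 bases at its 3′ end. The Mir129b hairpin is thus the exact reverse complement of the inner part of Mir129-2.

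**Figure D1:**
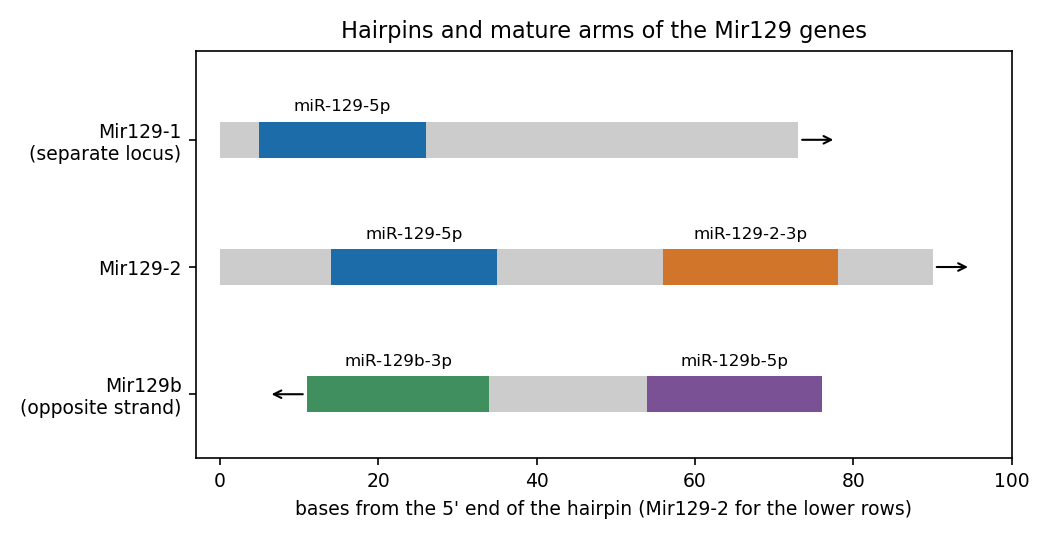
Hairpins (grey) and listed mature arms (coloured) of the 3 genes, in bases from the hairpin's 5′ end; arrows give the direction of transcription. Mir129b is drawn on the scale of Mir129-2, whose ends extend 11 and 14 bases beyond it.

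The table lists 4 different mature sequences for these genes, and each has a seed (in capitals) that no other mature miRNA name in the table shares.
miR-129-5p: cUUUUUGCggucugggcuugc
miR-129-2-3p: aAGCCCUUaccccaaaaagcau
miR-129b-5p: gCUUUUUGggguaagggcuucc
miR-129b-3p: cAAGCCCAgaccgcaaaaagauu
The arms of the opposite strand resemble those of Mir129-2. With miR-129b-5p shifted by 1 base, 17 of the 21 bases of miR-129-5p matched it, and the same shift matched 17 of the 22 bases of miR-129-2-3p with miR-129b-3p. The seeds therefore share letters but are offset by 1 base, so that they are not the same seed. The table lists no 3′ arm for Mir129-1, although its hairpin holds the seed letters of miR-129-2-3p on the same strand.

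Copies that share letters limit what can be counted, because a read that fits several places went into a separate tally and to no gene. The whole of miR-129-5p lies within a stretch of 26 bases that is identical in Mir129-1 and Mir129-2, aucuuuuugcggucugggcuugcugu, and a read made only of these letters fits both loci. The 3′ arms share 21 bases, ggaagcccuuaccccaaaaag. There miR-129-2-3p and the matching letters of the Mir129-1 hairpin, shown with the differing base in capitals, are told apart by a single substitution, C20U, counted from the 5′ end of the mature miRNA (the base of miR-129-2-3p first).
miR-129-2-3p: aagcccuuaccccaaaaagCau
Mir129-1 hairpin: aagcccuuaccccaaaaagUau
A read of this arm that ends within its first 19 bases fits both loci. The counts below are therefore of reads that reach a distinguishing base, and how many miR-129-5p reads the libraries held was not analysed here. That tally took 41.7% of all reads in library 1 and 41.1% in library 2.

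The same holds for Mir129b, because near copies of its 2 arms lie on the strand opposite Mir129-1 on chromosome 6. The 5′ arm of Mir129b differs from that strand only by G1A and its 3′ arm only by U23C, again with the base of the mature miRNA first. Both differences are at the outermost base of the arm. A miR-129b read that lacks this base fits both loci, and the antisense column of Mir129-1 held 0 reads in each library.

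Mir129-2 was counted 3805 times on its own strand in library 1 and 4592 times in library 2. As counts per 1000000 reads on the sense strand of miRNA genes (CPM), these were 994 and 1008.5 CPM, with a mean of 1001 ± 10.1 CPM (SD, n = 2). Both libraries were close in this gene, which ranked 92 of 2202 genes by mean CPM, not divided by hairpin length, and 97 and 91 within each library.

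Mir129-1 gave 816 and 1152 reads, or 213 and 253 CPM, with a mean of 233 ± 28.1 CPM (SD, n = 2). The second copy was thus lower in library 1 than in library 2 and ranked 162 by mean CPM. Both copies were among the 406 genes with 10 or more reads in each library, called detected here.

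Mir129b gave 6 and 5 reads, or 1.57 and 1.10 CPM, with a mean of 1.33 ± 0.332 CPM (SD, n = 2) and a rank of 487. The exact 95% Poisson intervals were 0.575 to 3.41 CPM in library 1 and 0.357 to 2.56 CPM in library 2, and they overlapped from 0.575 to 2.56 CPM. A count of 0 would have allowed up to 0.784 CPM in library 1 and 0.659 CPM in library 2 (3 counts of the total). Both values lay above that limit, but the lower ends of both intervals lay below it. Without molecular identifiers, reads are not separate molecules, and all intervals and limits here cover counting error only. Together the 3 genes took 0.121% of sense-strand miRNA reads in library 1 and 0.126% in library 2.

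**Figure D2:**
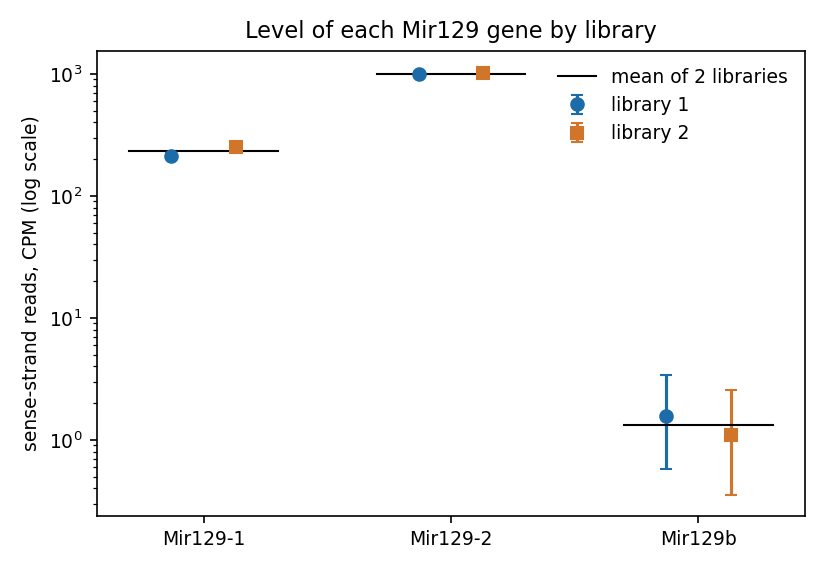
Sense-strand level of each gene (CPM, log scale) in library 1 (circles) and library 2 (squares), with exact 95% Poisson intervals and the mean of the 2 libraries as a line. Mir129-2 lies near 1001 CPM, Mir129-1 between 213 and 253 CPM, and Mir129b between 1.10 and 1.57 CPM.

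The 2 copies were unequal in both animals. Mir129-2 supplied 82.3% of the reads counted at either copy in library 1 (3805 of 4621, 95% Wilson interval 81.2 to 83.4%) and 79.9% in library 2 (4592 of 5744, 78.9 to 81.0%). Its count was 4.66 times and 3.99 times that of Mir129-1, or 3.78 and 3.23 times per base of hairpin. The share was lower in library 2, by a difference of -2.40 percentage points (library 2 minus library 1, 95% Newcombe interval -3.90 to -0.88). This was a difference beyond counting error by the two-sided Fisher's exact test (p = 0.00211, adjusted p = 0.00317 over 3 shares tested). That test compares these 2 libraries, not conditions, and the order of the copies was the same in both.

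Of the 3 genes, Mir129-1 differed between the libraries by more than counting error. It was 1.19-fold higher in library 2 (95% exact interval 1.08 to 1.30), a log2 ratio of library 1 over library 2 of -0.25, and passed the exact binomial test (two-sided, with the share of library 1 in all sense reads as the expected share; adjusted p = 0.000504, Benjamini-Hochberg over 508 genes with 10 or more reads in total). Mir129-2 did not pass (log2 ratio -0.02, 95% exact interval -0.08 to 0.04, adjusted p = 0.625). Mir129b did not pass either, with a log2 ratio of 0.51 whose interval ran from -1.46 to 2.56 (adjusted p = 0.663), so that at this depth a several-fold difference in either direction could not be seen. In all, 1 of the 3 genes passed, beside 48.4% of all genes tested, so the call does not set Mir129-1 apart from other genes. When the spread between the libraries was allowed for, at a coefficient of variation of 33.3%, edgeR's exact test called none of the 3 (adjusted p = 1 for each) and 4 of 508 genes, or 0.787%, with 25 (4.92%) at an unadjusted p under 0.05. This coefficient was fitted over all genes tested to the same 2 libraries that were compared. Few calls were therefore built in, and the test shows only which genes differed more than most.

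**Figure D3:**
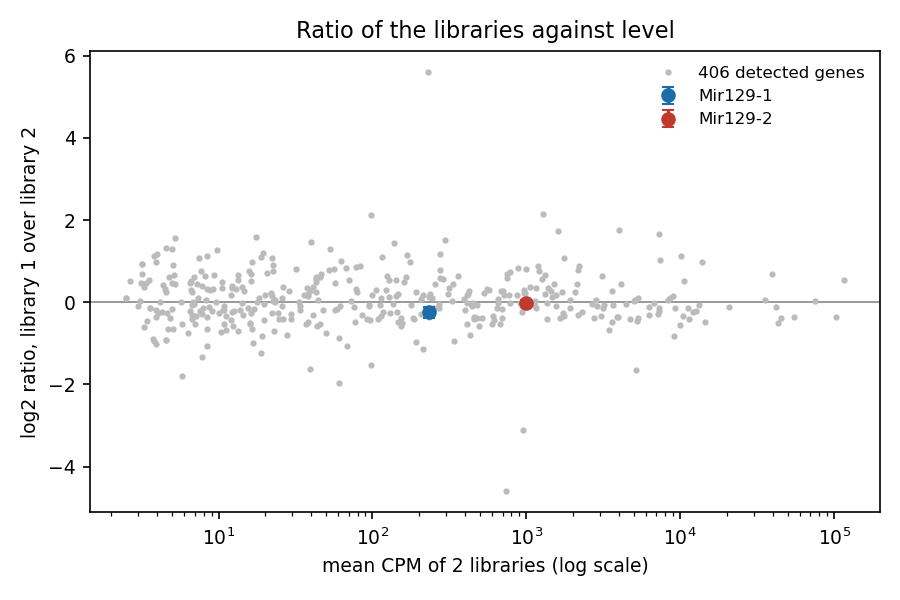
Log2 ratio of library 1 over library 2 against mean CPM (log scale) for the 406 detected genes (grey), with Mir129-1 and Mir129-2 and their exact 95% intervals in colour. Mir129-2 lies at -0.02 and Mir129-1 at -0.25, inside the grey cloud.

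Among detected genes, 13 of 406 (3.20%) had a smaller absolute log2 ratio than Mir129-2 and 143 (35.2%) a smaller one than Mir129-1, where the median was 0.35. The summed level of some cell type markers also differed between the libraries. The red blood cell genes Mir451a and Mir144 summed to 82.8 CPM in library 1 and 1515 CPM in library 2, nearly all of it from Mir451a (58.3 and 1419 CPM). Mir486, a further red blood cell miRNA outside the marker list, went the other way in counted reads (51.0 and 34.7 CPM). Mir486 overlaps Mir3107 on the opposite strand. How many of its reads fit several places and are left out of these values was not tested. The 12 neuron and cortex genes, 9 of them detected and none at 0, summed to 77660 and 52536 CPM, mostly through Mir132 (48515 and 30152 CPM) and Mir128-1 (13881 and 6392 CPM), while Mir138-1 (4434 and 6046 CPM) and Mir138-2 (2381 and 3132 CPM) went the other way. Of the microglia and leukocyte genes, Mir223 gave 15.9 and 1.76 CPM (61 and 8 reads), while Mir142 gave 45.2 and 43.5 CPM. By edgeR's exact test Mir451a (adjusted p = 2.66e-06) and Mir223 (adjusted p = 0.0457) passed. Neither Mir144 (adjusted p = 0.428) nor any of the neuron and cortex genes tested did (adjusted p = 1). The part of these markers in the difference of Mir129-1 was not tested. In bulk tissue, fewer cells of a type and less RNA per cell cannot be told apart.

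The genes nearest to Mir129-2 in log2(CPM + 1) over both libraries were Mir125b-1 (948 and 1036 CPM, distance 0.08), Mir497 (914 and 969 CPM, distance 0.13) and Mir323 (1046 and 899 CPM, distance 0.18). Those nearest to Mir129-1 were Mir351 (204 and 264 CPM, distance 0.09), Mir664 (236 and 264 CPM, distance 0.16) and Mir30c-1 (195 and 236 CPM, distance 0.17). With 2 libraries this likeness is one of level only. Of the other miRNA genes inside Mir670hg, Mir670 gave 27 and 39 reads (7.81 ± 1.07 CPM, SD, n = 2) and Gm23630 gave 0 in both, so the host gene's miRNAs differed widely in level from Mir129-2.

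The share of Mir129-2 was set beside that of the leading copy of other brain miRNAs with several loci. The leading copy is the one with the highest mean CPM in these data. Its share is therefore no lower than an even split by choice, and families of 2 and 3 genes are placed together. In a list of 10 such families with 23 genes besides miR-129, the leading copy held from 64.0% ± 7.36 (Mir124a-1 of the neuronal miR-124, with 17 and 26 reads in all) to 99.7% ± 0.0745 (Mir219a-2 of the oligodendrocyte miR-219a) of the family's counted reads (SD, n = 2). With 81.1% ± 1.70 (SD, n = 2), Mir129-2 was at place 5 of 11, between Mir128-1 at 81.7% ± 1.79 and Mir9-3 at 80.1% ± 3.88. These neighbours differed from it by less than the spread between the libraries. By counted reads miR-129 (1234 ± 38.2 CPM, SD, n = 2) was at place 6, between miR-125b at 1281 ± 16.9 CPM and miR-181a at 414 ± 30.9 CPM. Reads that fit several copies are left out in every family of the list. How many reads each family lost in this way was not tested, so the places compare counted reads only. By the binomial test 6 of the 21 listed genes tested were higher in library 1 and 7 in library 2, beside 25.2% and 23.2% of all genes tested. Their median log2 ratio was -0.09, and that of all genes tested was -0.003.

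Both strands of the chromosome 2 locus gave reads, in very unequal numbers. Mir129b held 0.157% of the reads of both strands in library 1 (6 of 3811, 95% Wilson interval 0.0722 to 0.343%) and 0.109% in library 2 (5 of 4597, 0.0465 to 0.254%). The shares did not differ detectably at this depth, with a difference of -0.049 percentage points (95% Newcombe interval -0.244 to 0.120, two-sided Fisher's exact test, adjusted p = 0.560).

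The antisense column shows the 2 genes as mirror images. Mir129b had 3789 and 4546 antisense entries, against its 6 and 5 sense reads, and Mir129-2 had 6 and 5 antisense entries, exactly the sense reads of Mir129b. An antisense entry here is a read already counted on the other gene's own strand, so the antisense values of Mir129b measure Mir129-2.

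In the column that ignores strand a read over both genes is ambiguous and counts for neither. Mir129-2 fell from 3805 to 16 reads in library 1 and from 4592 to 46 in library 2, a loss of 99.6% and 99.0%. The reads lost, 3789 and 4546, were the antisense entries of Mir129b to the read. Mir129b fell to 0 in both libraries, while Mir129-1, which faces no annotated gene, kept all of its 816 and 1152 reads. The chromosome 2 locus supplied 1.37% of the 277760 reads in the ambiguous tally of that column in library 1 and 1.36% of the 335196 in library 2. Without regard to strand the copies would thus appear in the reverse order, with Mir129-2 at a mean of 2.88% of the reads counted at either copy instead of 81.1%.

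**Figure D4:**
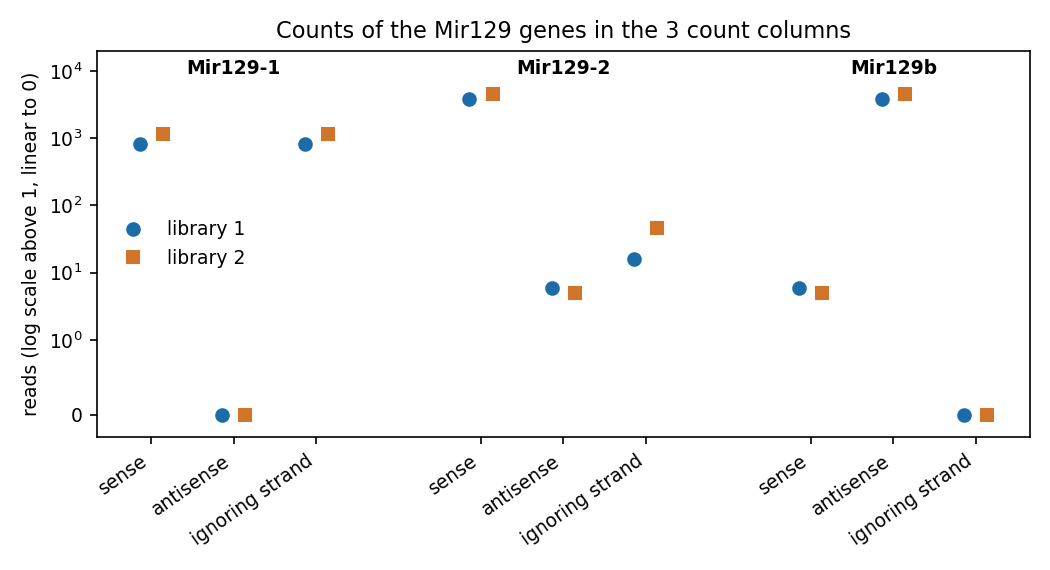
Reads of the 3 genes in the sense column, the antisense column and the column that ignores strand (log scale above 1, linear to 0), for library 1 (circles) and library 2 (squares). Mir129-2 falls to 16 and 46 reads where strand is ignored, Mir129b has 3789 and 4546 antisense entries, and Mir129-1 has equal counts in its sense and unstranded columns.

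The 16 and 46 reads that remained were assigned to Mir129-2 alone, and 25 of its bases lie outside Mir129b. The miR-129-5p copy of Mir129-2 has 0 bases outside Mir129b and miR-129-2-3p has 2. The remaining share was 0.420% in library 1 (95% Wilson interval 0.259 to 0.682%) and 1.00% in library 2 (0.752 to 1.33%). It was 2.38-fold higher in library 2, beyond counting error by the two-sided Fisher's exact test (adjusted p = 0.00317), and the SD of 0.411% around the mean of 0.711% (n = 2) was large. None of the reads left was among the antisense entries of Mir129b, which equal the reads lost. If any overlap puts a read over a gene, the reads left touch only the outer 11 and 14 bases of the hairpin. They would then hold at most 2 bases of a listed mature arm. At which end of the hairpin they lie cannot be read from counts per gene.

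The annotation holds 32 pairs of miRNA genes that overlap on opposite strands, and in 27 the stronger gene had 10 or more sense reads over both libraries. In 21 of these the weaker gene had no read. It had reads in both libraries in 3 pairs, Mir129b/Mir129-2, Mir3107/Mir486 and Mir3074-1/Mir24-1, and more than 3 reads in each library in only the first and the second. Over both libraries the weaker strand held 0.131% at the Mir129-2 locus (exact 95% interval 0.0653 to 0.234%), beside 10.2% for Mir3107 (7.37 to 13.6%), 7.96% for Mir3074-1 (5.66 to 10.8%) and, from 1 read opposite Mir136, 0.0944% for Mir3071 (0.00239 to 0.525%). Those pairs are named for their large pooled share, so their values are a description. The libraries differed in them. Mir3107 held 12.2% in library 1 and 7.60% in library 2, and Mir3074-1 held 1.03% (3 of its reads) and 19.5%. Mir3071 held 0.171% in library 1, above the 0.157% of Mir129b there, and 0 reads in library 2, so the order of the pairs was not the same in both libraries.

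The share of Mir129b was also compared, within each library, with the 3 other pairs that had the most reads, in which the weaker strand had 0 reads. It was higher than there by two-sided Fisher's exact tests, which cover counting error only (adjusted over 12 tests, of which 6 were on the pairs named for their share and are not given). Opposite Mirlet7e, with 137692 and 157632 reads, Gm25927 had 0 (adjusted p = 1.14e-09 and 4.38e-08). Opposite Mir126a, a miRNA of endothelial cells with 30999 and 53842 reads, Mir126b had 0 (adjusted p = 2.94e-06 and 4.51e-06). Opposite Mir191, with 36207 and 38668 reads, Gm24083 had 0 (adjusted p = 1.49e-06 and 1.80e-05). The counts of Mir129-2 and Mir129b carry the limit given for reads that fit several places, so their share is of counted reads only. How far this limit changes the share of Mir129b beside those of the other pairs was not tested. The same limit holds for Mir24-1, which has a second copy, Mir24-2. Whether it also holds for Mir486 and Mir3107, whose letters were not compared, was not tested, so their share too is of counted reads only.

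**Figure D5:**
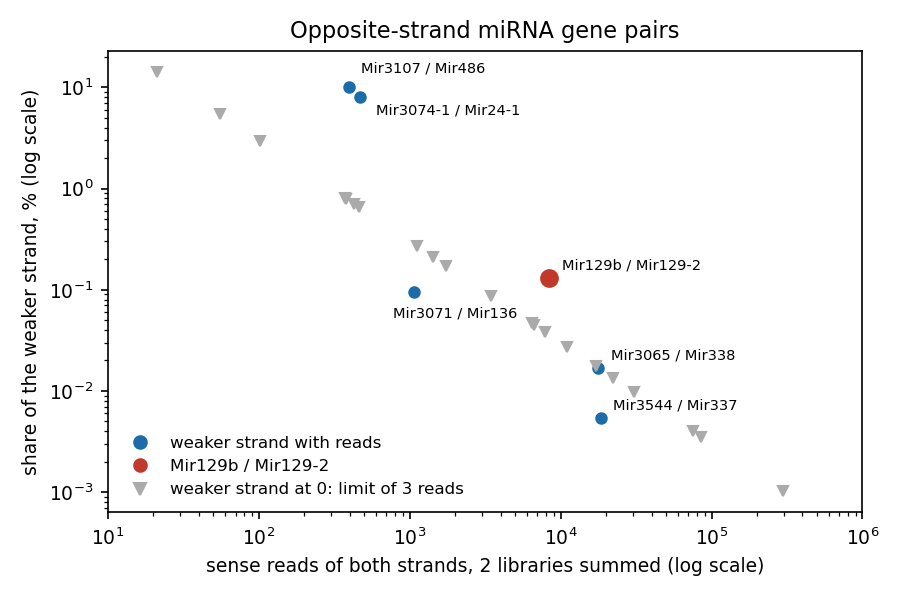
Share of the weaker strand (%, log scale) against the sense reads of both strands summed over the 2 libraries (log scale) for 27 opposite-strand miRNA gene pairs; triangles give the limit of 3 reads where the weaker strand had none. Mir129b/Mir129-2, at 0.131%, lies below Mir3107/Mir486 and Mir3074-1/Mir24-1 and above the limits of pairs with more reads.

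The reads left where strand is ignored also differed between these pairs. In 11 of the 27 pairs the stronger gene extends beyond the weaker one, and in 7 of those 11 it kept 0 reads. Mir129-2 kept 62 reads over both libraries (0.738%), Mir126a kept 6 (0.00707%), Mir374b kept 2 (0.529%) and Mir219a-1 kept 1 (1.82%). In the other 16 pairs the stronger gene has no base outside the weaker one, so that it could keep no read. The 26 pairs besides Mir129-2, these 16 among them, kept 5 reads in library 1 and 4 in library 2, fewer together than Mir129-2 alone in each. Mir374b and Mir219a-1 were named after their values were seen.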

How the data were processed

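The authors deposited 1 table per library with raw read counts per miRNA gene, not normalized, in 3 columns (strand ignored, sense, antisense) below 4 tally rows. Per the labels the build was mm10, and the deposited descriptions name the M21 annotation. For the aligner and for adapter trimming, name and version are not given in the sources used. The libraries held 11372894 and 12980686 reads, of which 3827158 and 4553291 were sense-strand counts in miRNA genes, the denominators of CPM. Tally rows (unmapped 19.6% and 18.9%, several places 41.7% and 41.1%, outside miRNA genes on the sense strand 5.03% and 4.94%, ambiguous 0 and 1 reads) stayed out of totals and tests. mm10 is the C57BL/6J sequence, so CAST/EiJ reads that differ may be lost.

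Libraries were compared by the exact binomial test, Fisher's exact test and edgeR 4.0.16's exact test (TMM factors, common dispersion) in R 4.3.3, with DESeq2 1.42.0 size factors as an alternative. edgeR's quasi-likelihood test has no residual degrees of freedom here. Tests and figures were made in Python 3.11.15 (scipy 1.17.1). The tests were tried on simulated counts. Named besides the 3 genes are, for each detected one, the 3 genes nearest in log2(CPM + 1), 6 opposite-strand pairs (3 by share, 3 by reads) and the extreme families of the multi-copy list; neighbours in order and Mir670hg's miRNAs are further examples. Members and lists were chosen with earlier results of these data known.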

Additional observations from a re-analysis of the deposited data

Results flagged for a closer look

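Reads outside the gene counts exceeded the limit that a count of 0 sets. Those fitting several places were 41.7% of library 1 and 41.1% of library 2, the tally that takes any read fitting both Mir129-1 and Mir129-2. Uniquely mapped reads outside the sense strand of miRNA genes were 5.03% and 4.94%.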

How the results depend on the processing

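Of 44 alternative values, 38 were taken as the same. Ratios among them kept their direction and their side of the threshold, and levels and shares moved by less than the spread between the libraries (SD). The number of genes that differ between the libraries was taken as the same where it ran from 222 to 251, beside 246. The values from leaving out a library are among the 38 by arithmetic. With 2 libraries, leaving out 1 always moves a mean by less than the SD, so they are no check. Ignoring strand took the mean of Mir129-2 from 1001 to 7.71 CPM, that of Mir129b to 0 CPM and the share of Mir129-2 among the copies to 2.88%, since reads over both genes then count for neither, and gave Mir129-2 a log2 ratio of -1.27 (adjusted p = 0.0049 by the binomial test, against 0.093 to 0.693 under the other binomial settings). Mir129-1 kept its call under every binomial alternative (adjusted p = 3.47e-05 to 0.000751) and lost it with edgeR's exact test (log2 ratio -0.23, adjusted p = 1), which called 4 genes in place of 246. Leaving out each library in turn gave 213 to 253 CPM for Mir129-1, 994 to 1008.5 CPM for Mir129-2, 1.10 to 1.57 CPM for Mir129b, and shares of 79.9 to 82.3%, 0.109 to 0.157% and, for the reads left where strand is ignored, 0.420 to 1.00%. A ratio needs both libraries, and Mir129b, with 11 reads, gave no test at 50 or more reads or where strand is ignored. No paired analysis was possible because the series holds 1 group. With 6 and 5 reads, depth limits every statement on Mir129b.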
